A study of Mus musculus with 8 samples.

Results

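Uroplakins are the membrane proteins of the urothelium, the lining of the bladder and ureter, where they form plaques on the apical face of the umbrella cells. The plaque is built from heterodimers. The tetraspanins UPK1A and UPK1B each pair with a single-pass partner, UPK1A with UPK2 and UPK1B with UPK3A or UPK3B. In the female tract, *Upk1b* and *Upk3b* are also known from the mesothelium that covers the serosa. The 7 genes described here are *Upk1a*, *Upk1b*, *Upk2*, *Upk3a*, the related *Upk3bl*, the umbrella cell keratin *Krt20* and the small proline-rich gene *Sprr2f*. They were chosen by name, *Upk3b* was used only as a mesothelial marker, and all 7 passed the filter on low counts among 16658 genes tested of 27179 counted.

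RNA was sequenced from whole uteri of mice at postnatal day 10 (PD10), when uterine glands begin to form. The 4 control mice had the genotype Ezh2 f/f, and the 4 conditional knockout (cKO) mice had Ezh2 f/f with *Amhr2*-Cre, both on a C57BL/6/129SvEv background. All 8 mice thus carried the floxed *Ezh2* allele, and Cre was driven from *Amhr2*, a gene expressed in mesenchyme-derived cells, so the uterine epithelium was not the cell type targeted. The labels give 1 library per sample and no litter or batch, and p-values measure the spread between these samples. In whole tissue, fewer cells of a type and less RNA per cell cannot be told apart.

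The libraries held 25287141 to 36685807 counts, and a gene with no counts could be as high as 0.0824 to 0.117 CPM (counts per 1000000, with library sizes scaled by TMM normalization), a limit that covers counting error only. *Ezh2* was at 35.4 to 54.7 CPM in the controls and at 30.4 to 40.7 CPM in the cKO mice, and the genotypes overlapped. The uterine epithelium markers *Epcam*, *Cdh1*, *Krt8*, *Krt18*, *Krt19*, *Esrp1* and *Wnt7a* summed to 1228 to 1498 CPM in the controls and 1383 to 1687 CPM in the cKO mice. Fat markers stood apart in 3 libraries. The 6 adipocyte genes summed to 69.0, 163 and 74.1 CPM in cKO replicates 1 to 3, to 3.99 CPM in cKO replicate 4 and to 1.96 to 3.29 CPM in controls, with *Lep* at 0 in control replicates 1 and 3 and in cKO replicate 4.

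The promoters of 3 members are shown first, those of *Upk1a*, which had the highest fold change of the 7, of *Krt20*, the member with a negative log2 fold change, and of *Sprr2f*, the member outside the urothelial plaque and keratin genes. Each sequence is from RefSeq on GRCm38.p6, runs 5′ to 3′ along the gene from 250 bases before to 50 bases after its start, and has in capitals each match, on either strand, to AGGTCA (the half-site of retinoic acid and other nuclear receptors), AACNGGTT (the element of Grainyhead-like factors) or CACCC (an element of Kruppel-like factors). They lie at chr7:30612685-30612984 on the minus strand, chr11:99438104-99438403 on the minus strand and chr3:92364937-92365236 on the plus strand.
Upk1a: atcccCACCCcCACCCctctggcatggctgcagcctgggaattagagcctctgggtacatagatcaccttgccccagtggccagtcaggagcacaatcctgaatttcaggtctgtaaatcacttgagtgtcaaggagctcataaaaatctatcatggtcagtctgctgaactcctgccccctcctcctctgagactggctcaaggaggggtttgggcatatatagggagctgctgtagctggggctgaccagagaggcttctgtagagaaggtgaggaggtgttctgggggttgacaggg
Krt20: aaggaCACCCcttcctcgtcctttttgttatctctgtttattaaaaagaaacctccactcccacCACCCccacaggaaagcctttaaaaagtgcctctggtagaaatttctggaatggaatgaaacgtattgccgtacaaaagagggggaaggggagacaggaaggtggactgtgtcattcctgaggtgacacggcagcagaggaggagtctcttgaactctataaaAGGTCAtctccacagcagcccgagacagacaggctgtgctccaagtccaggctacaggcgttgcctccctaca
Sprr2f: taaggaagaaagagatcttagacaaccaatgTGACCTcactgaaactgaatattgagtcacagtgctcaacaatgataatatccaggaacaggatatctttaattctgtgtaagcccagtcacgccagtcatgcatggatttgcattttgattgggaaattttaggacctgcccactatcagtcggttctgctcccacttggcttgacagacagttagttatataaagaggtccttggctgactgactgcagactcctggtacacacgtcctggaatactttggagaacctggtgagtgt

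The *Upk1a* window held 2 CACCC matches, no AGGTCA and no AACNGGTT. *Krt20* held 1 AGGTCA, starting at position -23 relative to the gene's start and directly after a TATAAA, and 2 CACCC matches. In *Sprr2f*, 1 AGGTCA lay on the opposite strand at position -219, and a TATAAA was also present. Of 32851 RefSeq promoters of this length, 16.3% held AGGTCA, 13.6% TATAAA, 57.5% CACCC and 2.09% AACNGGTT, so these letters are common apart from the last. The *Upk1a* window had 0 CpG, where the median promoter had 7, and those of *Krt20* and *Sprr2f* had 6 and 3. Promoters of *Upk3a* and *Upk3bl* were matched too, 5 of the 7 members in all, without *Upk1b* and *Upk2*. Among them, the *Upk3bl* window held an AACNGGTT.

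None of the 7 members was called between the genotypes by edgeR's quasi-likelihood test at an adjusted p-value under 0.05 (0 of 7, where 5.34% of all 16658 genes tested were called). The differential expression (DE) rule of the study, which adds a fold change over 2, called 1.3% of all genes and 0 members. At an unadjusted p under 0.05 there were 3 of the 7, *Upk1a*, *Upk2* and *Sprr2f*, all with positive log2 fold changes, against 11.4% of all genes in that direction and 9.86% in the other. Both *Upk1a* and *Upk2* separated the genotypes without overlap, cKO above control, 2 of 7, where 5.9% of all genes did so, 6.43% lay the other way and 12.3% either way. Their log2 fold changes exceeded 1, which 1.7% of all genes reached. Over the 7 members the median log2 fold change was 0.62, beside 0.00044 over all genes tested. That median is the value of *Upk3a*, a member with few counts, and it was 0.33 without control replicate 4. With DESeq2, 1 member was called, *Upk1a*, at an adjusted p of 0.00397.

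**Figure D1:**
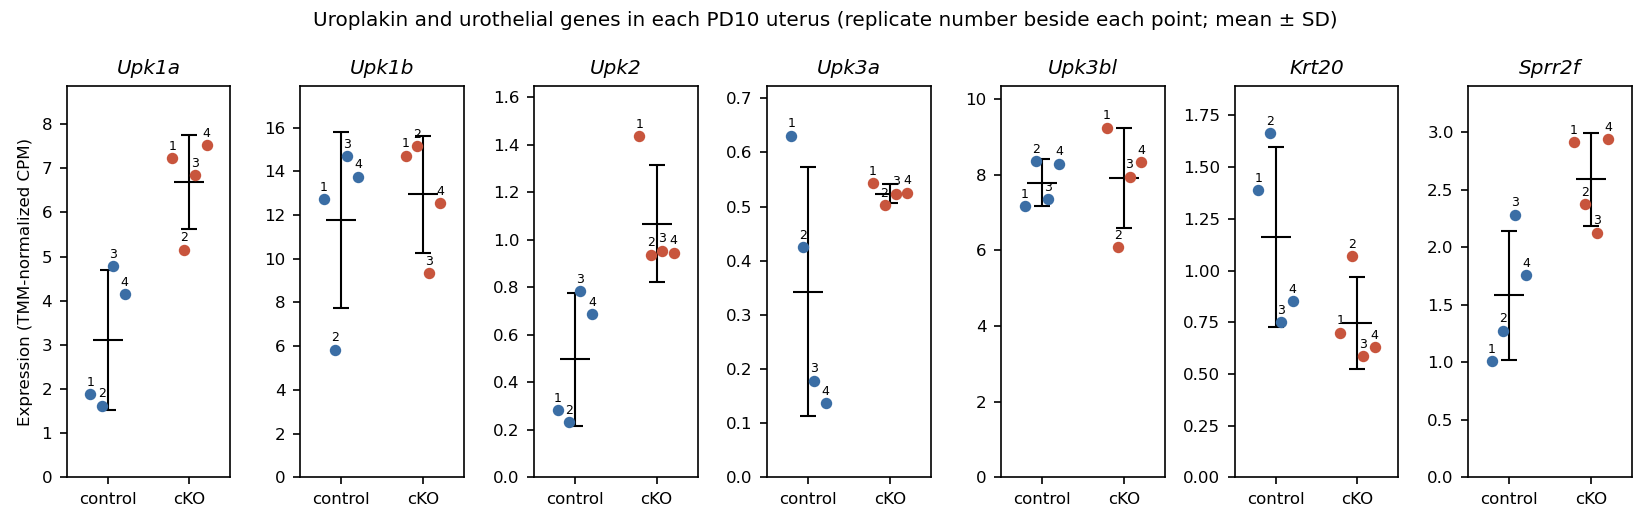
TMM-normalized CPM (y axis, from 0, scaled for each gene) of the 7 members in each library of 4 control and 4 cKO uteri at PD10, with replicate numbers beside the points and bars for mean ± SD. *Upk1a* and *Upk2* are the members in which every cKO point lies above every control point.

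*Upk1a* (Entrez 109637) lies on chromosome 7 of GRCm38 from 30603092 to 30612734 on the minus strand and has 8 exons. It encodes the tetraspanin that pairs with UPK2. Its level was 1.89, 1.62, 4.78 and 4.15 CPM in control replicates 1 to 4 and 7.22, 5.15, 6.84 and 7.53 CPM in cKO replicates 1 to 4. Control replicates 1 and 2 stood low, and the lowest cKO library, replicate 2, was only slightly above the highest control. These levels rest on 42 to 222 counts per library. The means were 3.11 ± 1.59 CPM in the controls and 6.69 ± 1.06 CPM in the cKO mice (SD, n = 4 each). The edgeR log2 fold change was 1.09 (SE, standard error, 0.31, 95% interval 0.41 to 1.78, adjusted p = 0.0706), and the exact permutation test on log2(CPM + 0.1), two-sided, gave p = 0.029, the smallest p that 4 libraries against 4 allow. Without control replicate 3 the same edgeR test called *Upk1a* (log2 fold change 1.37, adjusted p = 0.0334). In the other fits that left out 1 library its adjusted p ran up to 0.167.

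In cKO replicate 4, whose fat markers were near those of the controls, *Upk1a* was at its highest of all 8 libraries. The summed epithelial markers ranged from 1228 CPM in control replicate 2, the library lowest in *Upk1a*, to 1687 CPM in cKO replicate 4, the highest. Relative to those markers (per 1000 CPM of them), *Upk1a* was at 2.20 ± 0.961 CPM in the controls and at 4.32 ± 0.447 CPM in the cKO mice (SD, n = 4 each), and the genotypes did not overlap on this scale either (exact permutation test, two-sided, p = 0.029). With the epithelial score as a covariate in edgeR, the log2 fold change was 0.66 (adjusted p = 0.0606). With the fat score in its place the log2 fold change was 1.33 and the edgeR adjusted p was 0.399. That score was -1.87 to -1.05 in the controls, 2.29 to 3.62 in cKO replicates 1 to 3 and -1.45 in cKO replicate 4. It nearly followed genotype, so this fit told fat and genotype apart mainly through cKO replicate 4, here and for the other genes.

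*Upk2* (Entrez 22269, chromosome 9 of GRCm38, 44452715 to 44454767, minus strand, 5 exons), which encodes the partner of UPK1A, was much lower. It was at 0.284, 0.232, 0.785 and 0.686 CPM in control replicates 1 to 4 and at 1.44, 0.937, 0.955 and 0.946 CPM in cKO replicates 1 to 4, from 6 to 37 counts per library. As with *Upk1a*, control replicates 1 and 2 were lowest and every cKO library was above every control. Its means were 0.497 ± 0.279 and 1.07 ± 0.246 CPM (SD, n = 4 each). The log2 fold change was 1.07 (SE 0.36, 95% interval 0.29 to 1.86, edgeR adjusted p = 0.108, and p = 0.029 in the exact permutation test). DESeq2 gave *Upk2* an adjusted p of 0.0764.

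The levels of both genes of this heterodimer were also set against each other. Per kilobase of exon, the level of *Upk1a* was 3.83 to 6.07 times that of *Upk2* over the 8 libraries, with means of 4.92 ± 0.354 in control and 4.89 ± 1.05 in cKO uteri (SD, n = 4 each, exact permutation test, two-sided, p = 0.86). Over all 8 libraries the ratio spanned a 1.58-fold range, where *Upk1a* spanned 4.64-fold and *Upk2* 6.19-fold, but both ends of the ratio lay in cKO libraries, so it was not narrower than the genes themselves within that group. The ratio was looked at after the values were seen.

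*Upk1b* (Entrez 22268, chromosome 16, 38773182 to 38800203, minus strand, 8 exons) encodes the other tetraspanin. It was at 12.7, 5.84, 14.7 and 13.8 CPM in control replicates 1 to 4 and at 14.7, 15.2, 9.33 and 12.5 CPM in cKO replicates 1 to 4. Control replicate 2 was low, cKO replicate 3 was the next lowest, and the genotypes overlapped. Its log2 fold change was 0.13 (SE 0.26, 95% interval -0.46 to 0.72, edgeR adjusted p = 0.816), an interval that reaches less than a 2-fold difference in either direction. The level of *Upk1a* relative to *Upk1b*, per kilobase, was 0.351 ± 0.105 in control and 0.721 ± 0.222 in cKO uteri (SD, n = 4 each), with no overlap (exact permutation test, two-sided, p = 0.029).

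*Upk3a* (Entrez 22270, chromosome 15, 85017141 to 85022560, plus strand, 6 exons), the urothelial partner of *Upk1b*, was the lowest member. It was at 0.631, 0.426, 0.178 and 0.137 CPM in control replicates 1 to 4 and at 0.544, 0.502, 0.524 and 0.525 CPM in cKO replicates 1 to 4, from 5 to 20 counts per library. Control replicates 3 and 4 were below the filter of 0.2 CPM, so the gene was tested through the cKO libraries. The control libraries lay on both sides of the cKO libraries. Its log2 fold change of 0.62 (SE 0.42, 95% interval -0.29 to 1.53, edgeR adjusted p = 0.425) could not be told from 0 at this depth. Per kilobase, *Upk1b* was 7.92 to 57.8 times as high as *Upk3a*, a 7.30-fold span between libraries that includes the counting error of *Upk3a*.

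The mesothelial partner *Upk3b* had far more counts, so its ratio is not comparable in span with that of *Upk3a*. Per kilobase, the level of *Upk1b* was 0.317 to 0.446 times that of *Upk3b*, a 1.41-fold span, with means of 0.356 ± 0.0374 in control and 0.376 ± 0.0496 in cKO uteri (SD, n = 4 each, exact permutation test, two-sided, p = 0.54). *Upk3b* was at 58.2, 31.2, 78.7 and 80.7 CPM in control replicates 1 to 4 and at 75.1, 63.3, 48.1 and 70.8 CPM in cKO replicates 1 to 4, low in the same control replicate 2 and cKO replicate 3 as *Upk1b*. Not all 6 mesothelial markers had this pattern. *Wt1*, at 171 CPM, and *Muc16*, at 1.45 CPM, were at their highest of the 8 libraries in cKO replicate 3, and the lowest cKO library for *Gpm6a*, at 13.2 CPM, was replicate 4. Against *Msln*, the mesothelin gene, *Upk1b* spanned 1.32-fold. When every gene of at least 1 CPM was centred on its control mean and compared with *Upk1b* library by library, the nearest genes were *Msln*, *Fgf1* and *Upk3b*, with mean absolute differences of 0.099, 0.10 and 0.11 on the log2 scale over 8 libraries. This search was added after the values were seen, and these distances have no test.

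**Figure D2:**
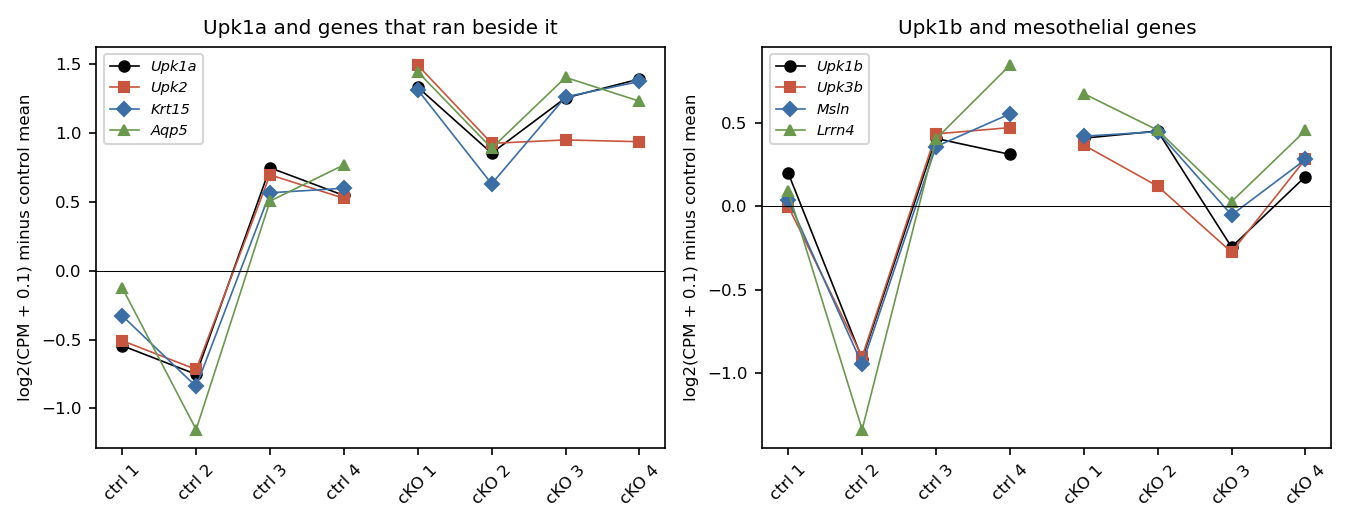
Level of each gene as log2(CPM + 0.1) minus its mean over the control libraries (y axis) in each of the 8 libraries (x axis, with lines only to guide the eye). At left *Upk1a*, *Upk2*, *Krt15* and *Aqp5* are lowest in control replicates 1 and 2 and higher in the cKO libraries, and at right *Upk1b*, *Upk3b*, *Msln* and *Lrrn4* are lowest in control replicate 2 and low in cKO replicate 3, which other mesothelial markers, *Wt1* and *Muc16*, were not.

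*Upk3bl* (Entrez 69665, chromosome 5, 136057259 to 136076695, plus strand, 6 exons), a uroplakin 3B-like gene on the same chromosome as *Upk3b*, was the steadiest member. Its control libraries were at 7.16, 8.36, 7.35 and 8.29 CPM, and its cKO libraries at 9.24, 6.09, 7.95 and 8.34 CPM. The cKO values spanned the whole control range. A log2 fold change of 0.019 (SE 0.13, 95% interval -0.27 to 0.31, edgeR adjusted p = 0.953) leaves room for less than a 1.24-fold difference either way.

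*Krt20* (Entrez 66809, chromosome 11, 99428385 to 99438153, minus strand, 8 exons) encodes the keratin of mature umbrella cells. It was at 1.39, 1.66, 0.749 and 0.851 CPM in control replicates 1 to 4 and at 0.699, 1.07, 0.585 and 0.630 CPM in cKO replicates 1 to 4. Here control replicates 1 and 2 were the highest libraries, the reverse of their place for *Upk1a* and *Upk2*, and cKO replicate 2 lay within the control range. Its log2 fold change was -0.63 (SE 0.31, 95% interval -1.30 to 0.05, edgeR adjusted p = 0.270). With the epithelial score as a covariate it was -0.099, and with the fat score -1.04.

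*Sprr2f* (Entrez 20760, chromosome 3, 92365187 to 92366442, plus strand, 2 exons) encodes a small proline-rich protein that is known to follow estrogen in the uterine epithelium. It was at 1.01, 1.28, 2.28 and 1.76 CPM in control replicates 1 to 4 and at 2.91, 2.38, 2.13 and 2.94 CPM in cKO replicates 1 to 4. Only control replicate 3 reached into the cKO range. Its log2 fold change was 0.71 (SE 0.24, 95% interval 0.18 to 1.23, edgeR adjusted p = 0.112, and p = 0.057 in the exact permutation test, two-sided). Of its 50-base windows in GENCODE transcripts, 0.714% were shared with another gene, *Sprr2e*, and the other 6 members shared none.

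Per kilobase of exon the order in control uteri ran from *Upk3bl* (6.95 ± 0.555 CPM per kb) and *Upk1b* (6.20 ± 2.12) through *Sprr2f* (2.60 ± 0.921) and *Upk1a* (2.19 ± 1.12) to *Krt20* (0.603 ± 0.226), *Upk2* (0.459 ± 0.258) and *Upk3a* (0.314 ± 0.211; SD, n = 4). Within each of these 3 tiers the neighbours differed by less than the larger of their SDs. In cKO uteri, *Upk1a* was at 4.71 ± 0.746 and *Sprr2f* at 4.25 ± 0.663 CPM per kb, again within their spread, and *Krt20* at 0.387 ± 0.115 and *Upk3a* at 0.479 ± 0.0156 CPM per kb also differed by less than the spread of *Krt20*. No exon of the 7 overlapped an exon of another gene in the GENCODE basic set.

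**Figure D3:**
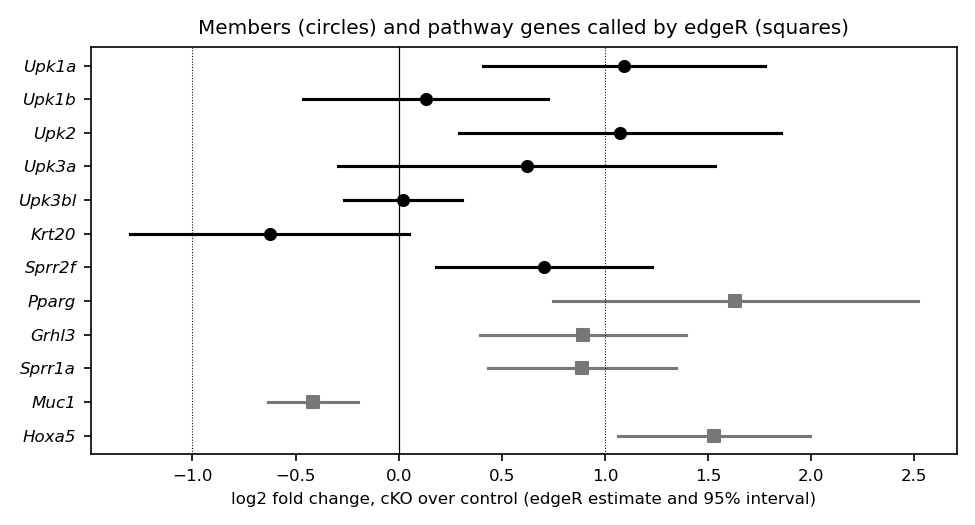
Log2 fold change of cKO over control (x axis) with its 95% interval from edgeR's quasi-likelihood fit, for the 7 members (circles) and for the pathway genes with an adjusted p under 0.05 (squares), with dotted lines at a 2-fold difference. The intervals of *Upk1a*, *Upk2* and *Sprr2f* lie above 0, and none of the members has an adjusted p under 0.05.

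The label of these genes as urothelial was set against other genes of that tissue. *Foxa1* and *Shh*, which are expressed in urothelium, had 0 counts in all 8 libraries, below the limit of 0.0824 to 0.117 CPM given above, and *Psca*, a surface protein of umbrella cells, had at most 2 counts. *Upk2* and *Upk3a* were at most 1.44 and 0.631 CPM. With these markers near the detection limit or low, no urothelium is named as present in these uteri. Other listed genes were higher, such as *Upk1a* and *Upk1b* at up to 7.53 and 15.2 CPM. *Klf5* and *Krt7* were at 38.2 to 52.9 and 46.4 to 64.6 CPM. Whether urothelium was present was not tested. The basal layer genes *Krt5* and *Krt14* were at 0.347 to 4.66 and 0.193 to 0.630 CPM. *Trp63*, the basal cell transcription factor, was at 5.84 to 7.85 CPM in the controls and at 5.64 to 6.47 CPM in the cKO mice.

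Of 54 further genes listed for urothelial differentiation and uterine epithelium, 38 were tested and 5 were called, with 4 higher and 1 lower in the mutants (edgeR). The background was 2.62% of all genes called higher and 2.71% called lower. Of the 5 calls, that of *Hoxa5* held in all 8 fits without 1 library and the other 4 did not. Without 1 library the number ran from 1, without cKO replicate 1 or 3, to 8, without cKO replicate 4, and it was 2 without control replicate 1 or cKO replicate 2. With the fat score as a covariate it was 0, although the log2 fold changes of *Grhl3* and *Sprr1a* were then 0.82 and 1.18 and that of *Hoxa5* 0.93.

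Among 10 regulators of urothelial differentiation, 8 were tested and 6 had positive log2 fold changes, and the list had a median of 0.24 on the log2 scale. By edgeR, 2 were called higher, where 2.62% of all genes were. *Grhl3*, a Grainyhead-like factor needed for umbrella cell differentiation, was at 4.45, 3.40, 7.49 and 7.30 CPM in control replicates 1 to 4 and at 11.8, 9.17, 12.0 and 9.28 CPM in cKO replicates 1 to 4, with no overlap. Its log2 fold change was 0.89 (SE 0.23, edgeR adjusted p = 0.0468), and the call was lost without control replicate 1 or cKO replicate 1, 2 or 3 (adjusted p up to 0.140), with no filter on low counts (adjusted p = 0.0665 by edgeR) and with the epithelial score as a covariate (adjusted p = 0.0608 by edgeR).

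*Pparg*, a nuclear receptor of both urothelium and fat, had a log2 fold change of 1.63 (SE 0.40, edgeR adjusted p = 0.0418). The libraries with high fat markers, cKO replicates 1 to 3, held 4.27, 5.79 and 2.90 CPM of it, but cKO replicate 4 held 1.44 CPM, within the control range of 0.678 to 1.65 CPM. The part of fat in this result was not tested. With the fat score as a covariate the log2 fold change of *Pparg* was 0.30 and its edgeR adjusted p 0.945, but that score nearly followed genotype. The call was also lost without any 1 of control replicates 1 to 3 or of cKO replicates 1 to 3 (adjusted p up to 0.119), and with no filter on low counts (adjusted p = 0.0685 by edgeR). *Ehf* and *Elf3*, the most abundant regulators, had log2 fold changes of -0.057 and 0.0073.

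Of the 9 genes for umbrella cell trafficking and junctions, 8 were tested and 0 were called by edgeR, while 3 had an unadjusted p under 0.05, against 21.2% of all genes in either direction. These were *Snx31*, *Mal* and *Cldn4*, named here after their values were seen, and they did not share a direction. *Mal*, a raft protein of apical transport, was at 44.2 to 58.8 CPM in the controls and 41.1 to 50.3 CPM in the mutants (log2 fold change -0.25, SE 0.091, edgeR adjusted p = 0.142). The tight junction gene *Cldn4* had a log2 fold change of 0.26 (edgeR adjusted p = 0.220). *Snx31*, a sorting nexin that binds uroplakins, was at 0.0387 to 0.250 CPM in the controls and at 0.272 to 0.647 CPM in the cKO mice without overlap, a log2 fold change of 1.81 (SE 0.50, edgeR adjusted p = 0.0552) that rests on few counts. Only 1 control library was above the filter of 0.2 CPM, so *Snx31* was tested through the group in which it was high. The claudin genes *Cldn3* and *Cldn7*, the most abundant of this list, had log2 fold changes of 0.22 and 0.050.

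All 9 urothelial keratins other than *Krt20* were tested, 8 had positive log2 fold changes with a median of 0.21, and 0 were called. At an unadjusted p under 0.05 there were 4, *Krt5*, *Krt15*, *Krt18* and *Krt19*, against 21.2% of all genes in either direction. In 2 of the 9 the genotypes did not overlap, against 12.3% of all genes. The abundant simple epithelial keratins *Krt8* and *Krt19* had log2 fold changes of 0.18 and 0.27, and every cKO library lay above every control for *Krt19*. *Krt15* was at 10.1, 7.04, 18.8 and 19.3 CPM in control replicates 1 to 4 and at 31.7, 19.7, 30.6 and 33.1 CPM in cKO replicates 1 to 4, a log2 fold change of 1.05 (SE 0.34, edgeR adjusted p = 0.126). Its cKO libraries lay above all controls, with cKO replicate 2 close to control replicate 4.

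The study sets *Upk1a* beside *Aqp5*, *Hoxa5* and *Krt15* as genes downstream of retinoic acid. The list holds only genes that the study reported on, so it is not taken as independent evidence of direction. In all 3, every cKO library lay above every control library, as in 5.9% of all genes tested. *Hoxa5* was DE, at 1.24 to 1.86 CPM in the controls and at 3.12 to 6.16 CPM in the cKO mice (log2 fold change 1.53, SE 0.21, edgeR adjusted p = 0.00121), and it stayed called in each of the 8 fits without 1 library, though not with the fat score as a covariate (adjusted p = 0.179 by edgeR). The water channel gene *Aqp5* had a log2 fold change of 1.09 (SE 0.34, edgeR adjusted p = 0.111).

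*Krt15* was also the gene nearest to *Upk1a* among all genes of at least 1 CPM when each was centred on its control mean, with a mean absolute difference of 0.10 on the log2 scale over 8 libraries. The next were *Prom2*, which encodes a membrane protein of epithelial cells, at 0.15 and *Cma1*, a mast cell chymase, at 0.18. Per kilobase, *Krt15* was 3.20 to 4.46 times as high as *Upk1a*, a 1.39-fold span. *Prom2* was at 8.30 ± 3.79 CPM in the controls and at 15.4 ± 2.43 CPM in the cKO mice (SD, n = 4 each).

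Of 17 small proline-rich and cornified envelope genes listed, 4 were tested and 1 was called. *Sprr1a* rose from 2.11 ± 0.557 to 3.92 ± 0.731 CPM between controls and mutants (SD, n = 4 each), which is 0.89 on the log2 scale (SE 0.21, edgeR adjusted p = 0.0284), and its cKO libraries, at 4.19, 3.05, 3.70 and 4.76 CPM, all lay above the highest control at 2.68 CPM. The call was lost without control replicate 1 or cKO replicate 1 or 3 (adjusted p up to 0.0926) and with the epithelial score as a covariate (adjusted p = 0.0660 by edgeR). *Sprr1a* was among the 3 genes nearest to *Sprr2f*, after *Dscam* and *Slc34a2*. The *Sprr2f* neighbour *Sprr2g*, a transcribed pseudogene in RefSeq, was at 5.02 to 9.03 CPM in the controls and at 5.92 to 10.1 CPM in the cKO mice, and the protein-coding *Sprr2* genes other than *Sprr2f* stayed at or below 0.155 CPM.

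Of 7 genes linked with estrogen in the uterine epithelium, all were tested, 5 had negative log2 fold changes, with a median of -0.19, and 1 was called. At an unadjusted p under 0.05 there were 4, against 21.2% of all genes. In 2 the genotypes did not overlap, against 12.3% of all genes. *Muc1*, which encodes an apical mucin, fell from 39.8 ± 4.62 to 29.8 ± 3.59 CPM between controls and mutants (SD, n = 4 each), which is -0.42 on the log2 scale (SE 0.10, edgeR adjusted p = 0.0315) that was lost without control replicate 2, without control replicate 3, or without any of cKO replicates 1 to 3 (adjusted p up to 0.0792) and with the fat score as a covariate (adjusted p = 0.698 by edgeR). The estrogen-induced *Ltf*, lactoferrin, had a log2 fold change of 1.00 (SE 0.32, edgeR adjusted p = 0.0939). That of *C3* was 0.62 (edgeR adjusted p = 0.0826), with every cKO library above every control. Those of *Lcn2* and *Greb1* were -0.52 and -0.19. The receptor genes *Pgr* and *Esr1* had log2 fold changes of -0.31 and -0.11.

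**Figure D4:**
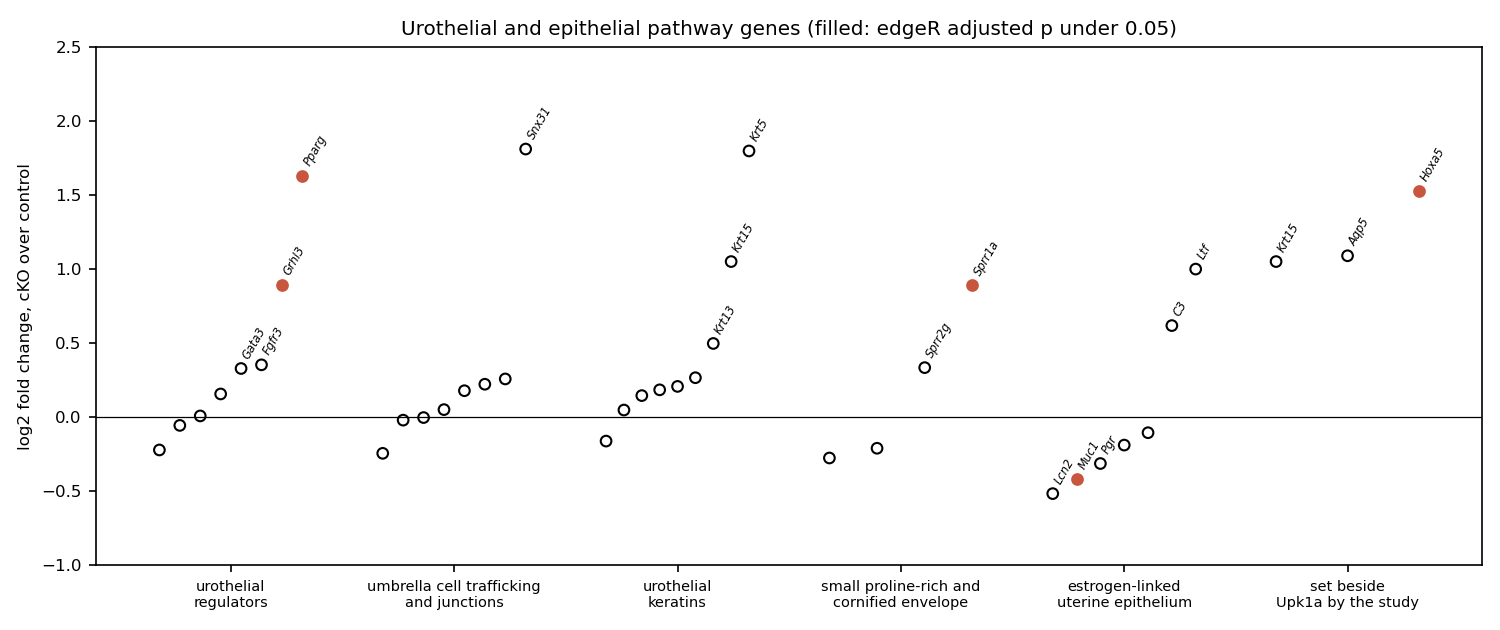
Log2 fold change of cKO over control (y axis) for each tested gene of the 6 pathway lists (x axis), with filled points for genes with an edgeR adjusted p under 0.05 and names for genes called or at least 0.3 from 0. *Pparg*, *Grhl3*, *Sprr1a* and *Hoxa5* lie above 0 and *Muc1* below it among the filled points.

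Markers of other cell types are given beside these results. The 7 stratified squamous genes summed to 8.63 to 11.4 CPM in the controls and 9.14 to 14.4 CPM in the cKO mice with 0 called, *Krt6a* at 0 and 1 at an unadjusted p under 0.05. The 6 mesothelial genes summed to 206 to 301 CPM and 262 to 277 CPM, with 0 called and 0 at an unadjusted p under 0.05. *Wt1* alone gave 140 to 156 and 136 to 171 CPM, so this sum mostly follows 1 gene. Of 6 adipocyte genes, 5 were tested, and all 5 had positive log2 fold changes and an unadjusted p under 0.05. Only *Adrb3*, at 2.10 to 3.35 CPM in the cKO mice, was called higher, where 2.62% of all genes were. *Adipoq*, *Plin1*, *Cidec* and *Fabp4* had edgeR adjusted p-values of 0.0573 to 0.0765. Of 6 skeletal muscle genes, with sums of 46.1 to 77.9 and 41.0 to 63.5 CPM, 5 were tested and 1, *Tnnt3*, was called higher. At an unadjusted p under 0.05 there were 3, against 21.2% of all genes. These were *Ckm*, *Mylpf* and *Tnnt3*, with log2 fold changes of 1.46, 0.82 and 0.80. Those of *Acta1* and *Ttn* were negative, and *Acta1* alone gave 39.7 to 70.1 and 33.1 to 51.6 CPM of the sums. The Muellerian genes *Hoxa10* and *Hoxa11* were called lower, 2 of 4 in their list, where 2.71% of all genes were. Ovary genes summed to 50.4 to 57.1 and 40.7 to 54.2 CPM, of which *Foxl2* alone gave 48.6 to 55.2 and 39.4 to 52.6 CPM. *Fshr* was at 0, *Amh* at most 0.167 and *Zp3* at most 0.107 CPM, while *Gdf9* was at 0.841 to 1.74 CPM. Oviduct genes summed to 3.00 to 4.10 and 2.42 to 3.18 CPM. Neither the ovary nor the oviduct list had a called gene, with 1 at an unadjusted p under 0.05 in each.

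**Figure D5:**
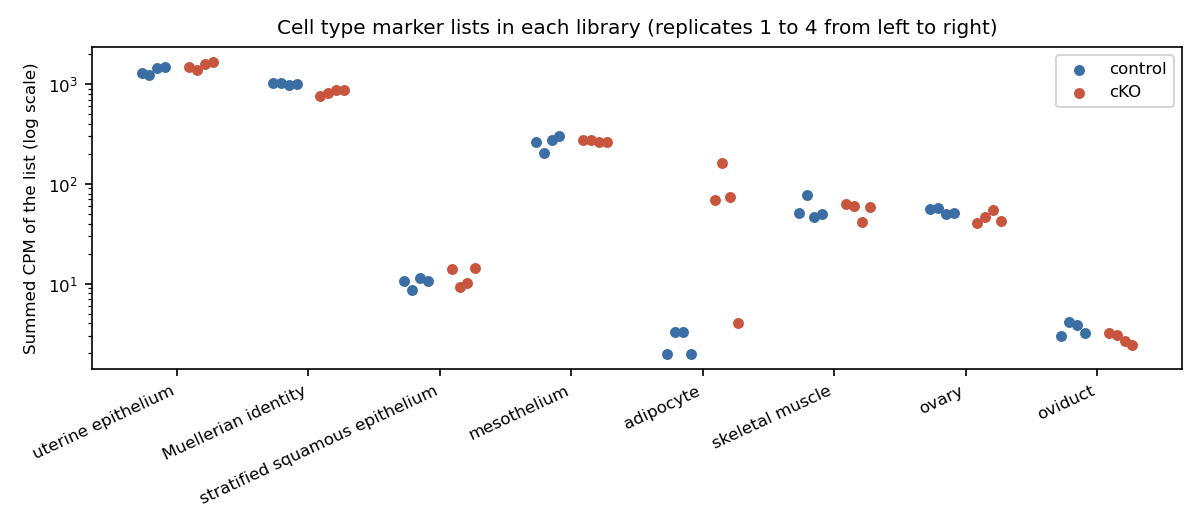
Summed TMM-normalized CPM (y axis, log scale) of 8 cell type marker lists in each of 4 control and 4 cKO libraries. The adipocyte list is high in cKO replicates 1 to 3, and the mesothelium list is lowest in control replicate 2.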

How the data were processed

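RNA-seq libraries (TruSeq stranded mRNA) of 4 control and 4 cKO uteri were analysed. The authors trimmed reads with Trimmomatic, used HISAT2 with GRCm38 and then featureCounts, and deposited raw counts per Entrez gene. The annotation release and strand setting are not given in the sources used here. A deposited edgeR table, with log2 fold changes, mean log2 CPM, F scores and p-values of the authors, gave only gene symbols, and its values were not used.

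Genes passing 0.2 CPM in 4 or more libraries were fitted with edgeR 4.0.16 in R 4.3.3 (TMM, glmQLFit and glmQLFTest, robust = TRUE, prior count 0.125), following the methods of the study, with Benjamini-Hochberg adjustment over all genes tested. The standard error is the log2 fold change divided by the square root of F. The exact permutation test used 70 arrangements, a pseudocount of 0.1 and no adjustment over the members. Exonic lengths came from GENCODE M21 (GRCm38), loci and promoters from RefSeq. The test was checked on simulated counts. Alternatives were median-ratio scaling, other filters, DESeq2 1.42.0, robust = FALSE, a replicate block, 2 covariate scores, a prior count of 2 and leaving out each library.

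All 7 members are named, with the genes of each list under an adjusted p of 0.05 and the 2 most abundant where they add to the text. The rule for genes of like pattern applied to members with an adjusted p under 0.05, of which there were none, so the searches for *Upk1a*, *Upk1b* and *Sprr2f* were added later. The members and lists were chosen with earlier results of these data known.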

Additional observations from a re-analysis of the deposited data

Results flagged for a closer look

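*Upk2* in cKO uteri has 1 library far from the others. At 1.44 CPM, cKO replicate 1 lay above 0.955, 0.946 and 0.937 CPM in the other cKO libraries, and its gap to the nearest made up 0.964 of the range of the group, above Dixon's 95% critical value of 0.829 for 4 samples. It rests on 37 counts. Chance flags about 1 in 20 groups, and 14 groups were examined. Without this library the log2 fold change of *Upk2* was 0.91 (adjusted p = 0.251 by edgeR).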

How the results depend on the processing

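The number of members called was 0 in edgeR and 1, *Upk1a*, with DESeq2 and with the replicate block, and it ran from 0 to 1 over the fits without 1 library. For *Upk1a* the adjusted p was 0.00848 with the replicate block and from 0.0334 to 0.167 without 1 library, and it was highest, 0.399, with the fat score in the fit. Replicate numbers did not pair the samples, since the deviations of same-numbered libraries correlated with r from -0.00354 to 0.194 across genes, and of the controls only replicate 4 correlated best with the cKO library of its own number (0.194, against at most 0.120 with another). Among the 38 other pathway genes tested, 5 were called in edgeR, 8 with the replicate block, though not *Pparg* (edgeR adjusted p = 0.0812) or *Muc1* (0.0508), 8 with DESeq2, 3 with no filter on low counts, 0 when the fat score was a covariate, and 1 to 8 without 1 library. Over all 16658 genes, 889 were called in edgeR, 1510 with DESeq2, 1991 and 79 when the epithelial or the fat score was the covariate, 1240 with the replicate block, and 425 to 1783 without 1 library. The cause was not tested. Directions turned for members near 0. *Upk1b* had a log2 fold change between -0.087, without control replicate 2, and 0.26 in the fits without 1 library, and that of *Upk3bl* was -0.073 with the epithelial score as a covariate and between -0.058 and 0.13 without 1 library. The other 5 members kept their direction under every alternative that tested them, but not their size. The log2 fold change of *Krt20* was -0.099 with the epithelial and -1.04 with the fat covariate, and that of *Upk3a* ran from 0.33 to 1.13 without 1 library. *Upk2*, *Upk3a* and *Krt20* were not tested with a filter of CPM over 1. Counts of 5 to 37 per library limit *Upk2* and *Upk3a*.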

Other observations

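All members but *Upk3bl* varied more among control than among cKO uteri. The coefficient of variation was 51.0% in control and 15.9% in cKO uteri for *Upk1a* and 56.3% and 23.0% for *Upk2*. It was 34.2% and 20.6% for *Upk1b*, 67.1% and 3.26% for *Upk3a*, 37.5% and 29.7% for *Krt20* and 35.5% and 15.6% for *Sprr2f*. In *Upk3bl* it was the reverse, 7.99% and 16.8%. These are descriptions over 4 libraries each, without a test, and they include counting error.

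*Krt5*, a keratin of basal cells, was at 4.66 and 4.34 CPM in cKO replicates 1 and 4 and at 0.347 to 1.18 CPM in the other 6 libraries. The difference was 1.80 on the log2 scale (SE 0.68, edgeR adjusted p = 0.177). *Krt14*, which is known to pair with it, was at 0.272 and 0.630 CPM in cKO replicates 1 and 4 and at 0.193 to 0.606 CPM in the other 6.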
